A study of Mus musculus with 9 samples.

Results

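The genes of the major histocompatibility complex (MHC) and of antigen presentation were followed in subcutaneous tumors grown from KLN205, a DBA/2 mouse line of lung squamous cell carcinoma, in DBA/2 hosts. They were chosen by name, as the 39 symbols that start with H2- and 15 further genes of peptide supply, transport, loading and control, which gave 54 of the 19481 genes in the table of read counts. All cells carried a doxycycline-inducible shRNA vector, with a non-targeting shRNA (shControl) or with 1 of 2 shRNAs against *Tmprss11b* (sh2 and sh3), and each group held 3 tumors. *Tmprss11b* encodes a transmembrane serine protease, and the comparison asks how its depletion in the carcinoma cells relates to gene expression in the whole tumor. Hosts were female wild-type DBA/2 mice, 6 to 8 weeks old at injection. In all 3 groups the cells were treated with 3 µg/ml doxycycline to express the shRNAs, and the mice received doxycycline in the water from an average tumor volume of 100 mm3. Tumors were taken on day 50. The RNA therefore mixes transduced carcinoma cells with host leukocytes, fibroblasts and vessels, the shRNA acts in the carcinoma cells alone, and fewer cells of a type and less RNA per cell cannot be told apart.

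Class I molecules, made of a heavy chain and β2-microglobulin, show peptides of cytosolic origin to CD8 T cells. These peptides are cut by the proteasome, whose catalytic subunits are exchanged for the inducible *Psmb8*, *Psmb9* and *Psmb10* under interferon γ, are carried into the endoplasmic reticulum by the transporter of *Tap1* and *Tap2*, and are loaded with the help of tapasin (*Tapbp*). Class II molecules, α and β chains held by the invariant chain (*Cd74*), show endosomal peptides to CD4 T cells. Their expression is mostly restricted to professional antigen-presenting cells unless interferon γ induces it elsewhere. *Nlrc5* and *Ciita*, the transactivators of the class I and class II genes, act through a shared set of promoter boxes.

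The haplotype of the reference bears on what these rows can measure. DBA/2 mice carry the d haplotype of the MHC, whereas the C57BL/6J genome behind the mm10 build carries b, which lacks an L gene and has an inactive α chain gene of the E molecule, annotated as *H2-Ea-ps*. That row had 903, 961 and 1016 CPM in the shControl tumors, 890.3, 299 and 607 in the sh2 tumors and 345, 1978 and 1710.1 in the sh3 tumors, where CPM are read counts scaled to the size of the library with TMM factors. The ratio of *H2-Eb1* to *H2-Ea-ps* counts lay between 0.900 and 1.25 in the 9 tumors, so the reads of a gene that is silent in the reference strain followed those of its partner chain. Of the 54 rows, 50 matched a RefSeq symbol and 2 a synonym. *H2-L* and *H2-T9* matched neither. Rows *H2-Q6* and *H2-Q8* held the same count in all 9 tumors, as did *H2-Q7* and *H2-Q9*. *H2-T22* and *H2-T9* differed by at most 2 counts. The *H2-L* row held 0.5025 to 0.558 times the *H2-D1* count. Values of near-identical class I genes are uncertain, since reads can be shared or lost between copies and between haplotypes, and the part of this in any value was not tested. In RefSeq (GRCm38.p6, the mm10 assembly), 40 members lie on the primary sequence of chromosome 17, within chr17:33919478-37483554.

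Upstream sequences are shown for 6 members, 3 of each class, to set class I and class II promoters side by side. RefSeq promoter entries were found for 36 members. Each line runs from -200 to -6 before a start site, 5′ to 3′ on the gene's strand, in the C57BL/6J reference and not in DBA/2. The stretches lie at chr17:35379417-35379611 (plus strand) for *H2-Q4*, chr17:35424650-35424844 (plus) for *H2-Q6* and chr2:122147487-122147681 (plus) for *B2m*. In these class I lines, capitals mark GGGGATTCCCC, letters of the NF-κB type, and TTTCACTTC, of the interferon response type, and in *B2m* a match to TTTCNNTTTC on the other strand.
H2-Q4: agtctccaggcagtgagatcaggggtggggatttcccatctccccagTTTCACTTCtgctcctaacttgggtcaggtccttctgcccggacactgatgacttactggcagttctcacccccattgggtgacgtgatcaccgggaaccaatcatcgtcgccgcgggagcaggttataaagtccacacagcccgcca
H2-Q6: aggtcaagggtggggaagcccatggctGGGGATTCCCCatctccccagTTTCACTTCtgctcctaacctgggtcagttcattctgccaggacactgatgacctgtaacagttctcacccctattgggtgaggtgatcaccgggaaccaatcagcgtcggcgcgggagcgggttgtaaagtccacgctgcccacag
B2m: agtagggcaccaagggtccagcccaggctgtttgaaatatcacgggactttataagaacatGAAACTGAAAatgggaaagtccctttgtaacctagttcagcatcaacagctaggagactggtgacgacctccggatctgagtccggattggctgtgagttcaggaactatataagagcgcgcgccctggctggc
The class II stretches lie at chr17:34287829-34288023 (minus strand) for *H2-Aa*, chr17:34305667-34305861 (plus) for *H2-Eb1* and chr17:34238705-34238899 (plus) for *H2-Ob*. Here capitals mark AACNNATGATGC, letters of the X boxes, and GATTGG on either strand, the Y or CCAAT box. GATTGG is not particular to these lines. It also occurs in the class I lines, at -55 in *H2-Q4* and *H2-Q6* and at -54 in *B2m*, and was left in lower case there.
H2-Aa: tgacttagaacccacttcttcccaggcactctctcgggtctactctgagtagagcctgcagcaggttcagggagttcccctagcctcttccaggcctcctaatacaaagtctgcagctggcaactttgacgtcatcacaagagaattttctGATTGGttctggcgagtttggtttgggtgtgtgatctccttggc
H2-Eb1: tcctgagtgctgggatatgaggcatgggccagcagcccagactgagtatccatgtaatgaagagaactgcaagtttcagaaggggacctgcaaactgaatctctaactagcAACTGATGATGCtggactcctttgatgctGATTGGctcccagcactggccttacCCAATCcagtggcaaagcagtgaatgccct
H2-Ob: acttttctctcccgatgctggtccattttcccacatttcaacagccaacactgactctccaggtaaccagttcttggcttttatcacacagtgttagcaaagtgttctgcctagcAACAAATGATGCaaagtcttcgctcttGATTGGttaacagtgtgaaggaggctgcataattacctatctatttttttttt

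The letters were chosen after the sequences had been seen and were searched on both strands in the 200 bases before each start, with no overlap between them in the lines shown. They were copied from promoters of members: *H2-Q6*, *H2-Q4*, *B2m* with *H2-T23*, *H2-Eb1* with *H2-Ob*, and *H2-Aa*, in that order of source. N stands where the promoters of a pair differ. Matches in the source genes were therefore fixed in advance, and the shares of all promoters are no test of the member counts. GGGGATTCCCC was found in 3 of the 36 members (*H2-K1*, *H2-D1* and *H2-Q6*) and in 0.0274% of 32851 mouse promoters. TTTCACTTC was found in 7 members, all class I heavy chains, against 0.307% of promoters. In *H2-D1* the first match starts at -171 and the other at -150. AACNNATGATGC was found in 4 members, *H2-Eb1*, *H2-DMb1*, *H2-DMb2* and *H2-Ob*, each with GATTGG nearer to the start, and both together occur in 5 promoters of the whole table. GATTGG by itself is common, at 12.9% of promoters and 22 of the 36 members. TTTCNNTTTC was found in *B2m*, *H2-T22* and *H2-T23*, against 2.27% of promoters. These matches describe the reference sequence, and binding was not measured.

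The members ranged over more than 3 orders of magnitude in abundance. On the deposited TPM, transcript values scaled for length that allow genes to be compared, *Cd74* stood highest at 5133 ± 2278 TPM (mean ± SD over the 9 tumors), rank 8 of 19481 genes, followed by *B2m* at 5038 ± 1946 TPM, rank 10. These neighbours do not differ beyond their spread. The 4 class II chains came next to the classical heavy chains, with *H2-Ea-ps* at 2716 ± 1361 TPM, *H2-Aa* at 2627 ± 1304 TPM and *H2-D1* at 2092 ± 574 TPM. *H2-K1*, the K heavy chain, had 1091 ± 341 TPM, rank 94, so β2-microglobulin transcripts outnumbered those of each heavy chain. The inducible proteasome subunit *Psmb8* stood at 646 ± 244 TPM and the peptide editor chain *H2-DMa* at 167 ± 65.5 TPM. The transporter genes were lower, with 131 ± 51.4 TPM for *Tap1* and 125 ± 42.1 TPM for *Tap2*. Among the transactivators, *Nlrc5* had 47.1 ± 25.8 TPM and *Ciita* 35.9 ± 18.6 TPM. *Cd1d1*, which presents lipids to NKT cells, was at 6.46 ± 1.21 TPM, and the DO chains *H2-Oa* and *H2-Ob*, inhibitors of peptide editing known from B cells, were the lowest members tested at 4.33 ± 2.09 TPM and 2.83 ± 1.40 TPM.

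**Figure D1:**
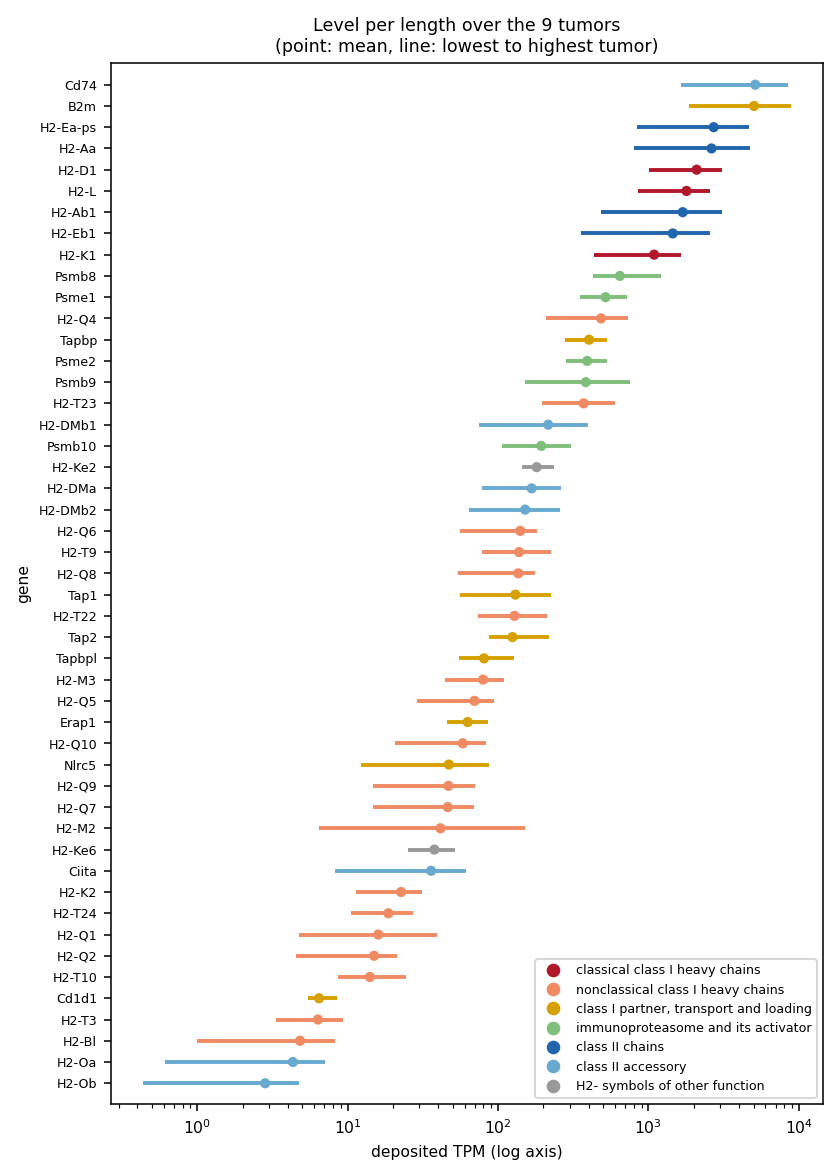
Deposited TPM of the 48 members tested, on a log axis. Points are means over the 9 tumors and lines run from the lowest to the highest tumor, with colors for the roles. *Cd74*, *B2m*, the class II chains and the classical heavy chains fill the top 9 places, and *H2-Ob* is lowest at 2.83 TPM.

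Libraries held 20653219 to 24047784 counts, so that 3 counts, the limit that a count of 0 allows, equal 0.125 to 0.145 CPM, which covers counting error only. *Tmprss11b*, listed as *Tmprss11bnl*, had 18, 51 and 42 counts in the shControl tumors, 7, 2 and 5 in the sh2 tumors and 10, 4 and 5 in the sh3 tumors, lower in each shRNA tumor than in each control, although the FDR was 0.999 and 0.753. Each tumor is labelled as a biological replicate. With every row counted once, the members took up 1.61% to 1.88% of all counts in the shControl tumors, 1.6%, 0.634% and 1.16% in the sh2 tumors, and 1.01%, 2.53% and 2.71% in the sh3 tumors. The control tumors lay close together. The shares spread most in the sh3 group, and sh2 replicate 2 had the lowest share of all tumors.

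Relative to shControl, antigen presentation genes stood lower on average with sh2 and higher with sh3, and neither difference passed the test for any member. Of the 48 members that passed the filter on low counts, 46 had a negative log2 fold change with sh2 (all genes, 48.2%), with a median of -0.51 against 0.01 over the 14725 genes tested. With sh3, 45 were positive (all genes, 54.9%), with a median of 0.37 against 0.03. Without the rows *H2-Q8*, *H2-Q9* and *H2-T9*, whose counts repeat those of other rows, 43 of 45 were negative with sh2 and 42 of 45 positive with sh3. These comparisons share the 3 control tumors. By edgeR's quasi-likelihood test with Benjamini-Hochberg adjustment, 0 members had an FDR under 0.05 with sh2, with sh3 or with both together, as was the case for all genes (0.0% called), and the lowest FDR of a member was 0.999 with sh2 and 0.753 with sh3. At an unadjusted P under 0.05, 0 members were lower or higher with sh2 (background 3.52%) and 2 were higher with sh3 (background 3.5%), namely *H2-Q1* and *H2-M2*. With both shRNAs together 0 members passed that P, beside 4.09% of genes. The count of 2 with sh3 was 20 without sh3 replicate 1, 0 without sh3 replicate 2 and 0 without shControl replicate 2. Without sh3 replicate 1, the share of all genes higher with sh3 at that P rose to 8.7%. The count of 0 with sh2 was 16 lower without sh2 replicate 1, 5 lower without sh3 replicate 1 and 0 without sh2 replicate 2. In these fits 6.13%, 5.77% and 1.09% of all genes passed that P in either direction. DESeq2's Wald test and the edgeR likelihood ratio test also called 0 members in these comparisons.

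The median difference was wider between the 2 shRNA groups than between either and the control. All 48 members tested had a higher level with sh3 than with sh2 by the sign of the fold change (all genes, 54.8%), with a median log2 difference of 0.87 against 0.03 over all genes. No member passed at an FDR under 0.05 (lowest FDR 0.673, 0.0% of all genes called). At an unadjusted P under 0.05, 20 of 48 were higher with sh3 (19 of 45 without the 3 rows of copied counts), beside 3.52% of all genes tested. *H2-Q1* and *H2-M2* had no overlap between the groups (background 5.51%). Of the 20, 18 were on the class I side and 2 on the class II side. The members are not independent replicates. The count rests on single tumors, being 1 without sh2 replicate 2, 5 without sh2 replicate 3, 6 without sh3 replicate 2 and 2 without sh3 replicate 3. It was 35 without sh2 replicate 1 and 39 without sh3 replicate 1. Of all genes, 3.47% and 11.2% were higher at that P in these fits. In the fits named before them it was 1.76%, 1.38%, 2.71% and 2.92%, in the order given. *H2-Q1* was called by DESeq2's Wald test (adjusted p = 0.00546) and by the edgeR likelihood ratio test (adjusted p = 0.0359), and its adjusted p reached 0.97 among the other alternatives.

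**Figure D2:**
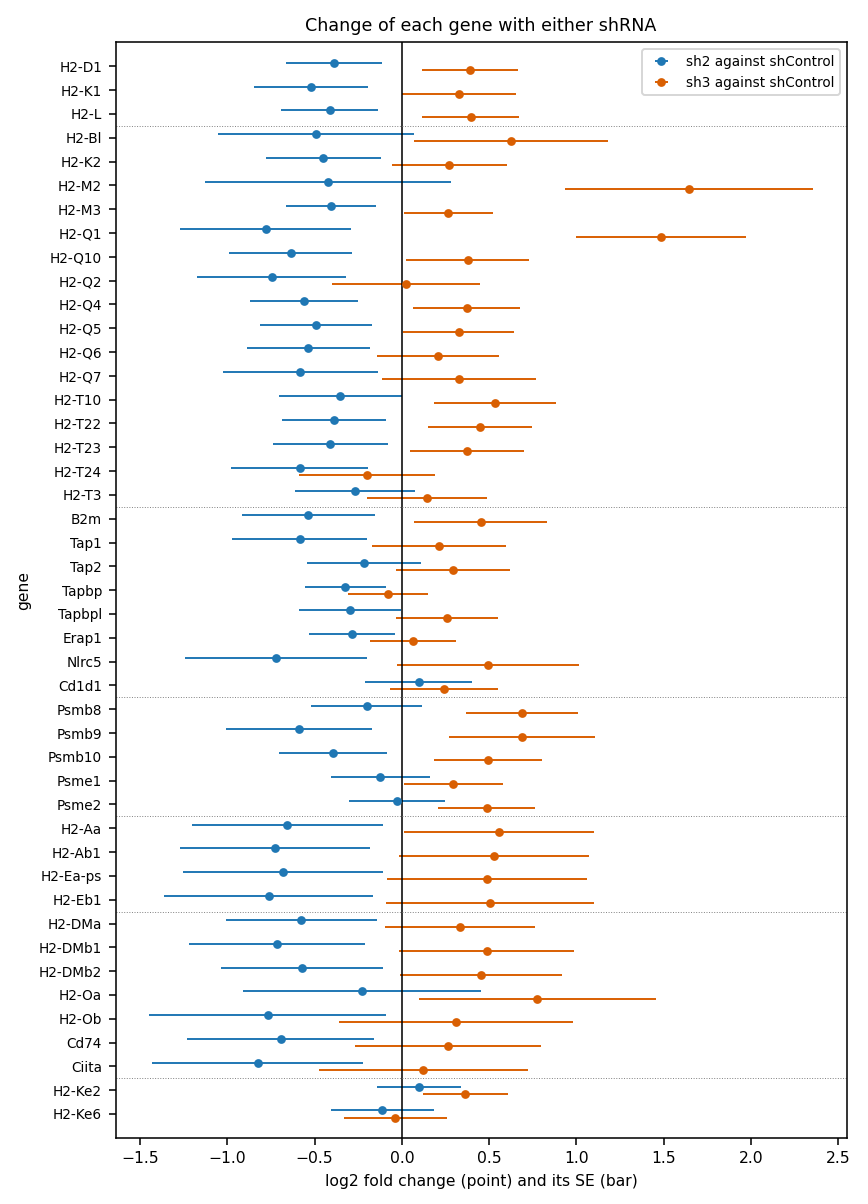
Log2 fold change of each member tested (points) with its standard error (bars) for sh2 (blue) and sh3 (orange) against shControl, 3 tumors per group, with repeated rows shown once and dotted lines between roles. Blue points lie left of 0 for 43 of 45 genes and orange points right of 0 for 42 of 45, and *H2-M2* and *H2-Q1* lie farthest right.

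The averages covered wide differences between tumors of a group. Of the 48 members tested, 37 were lowest in sh2 replicate 2, 27 were highest in sh3 replicate 3 and 20 in sh3 replicate 2. The same counts were not made over all genes, so they do not set the members apart. Among genes that are no members, *Ctss* and *Psmb6* were also highest in sh3 replicate 2, whereas *Calr* and *Hspa5* were highest in sh2 replicate 3. As a summary, each tumor was given the median, over the members of a role, of the log2 ratio to the mean of the controls. For the class I side of 35 members it was 0.02, -0.998 and -0.49 in the sh2 tumors and -0.38, 0.53 and 0.66 in the sh3 tumors. For the class II side of 11 members it was -0.12, -1.72 and -0.66 with sh2 and -1.22, 0.92 and 0.83 with sh3. Thus sh2 replicate 1 lay near the controls, sh2 replicate 2 was low on both sides, and sh3 replicates 2 and 3 were high on both sides. The sh3 group was split on class II, where replicate 1 lay between sh2 replicates 2 and 3.

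**Figure D3:**
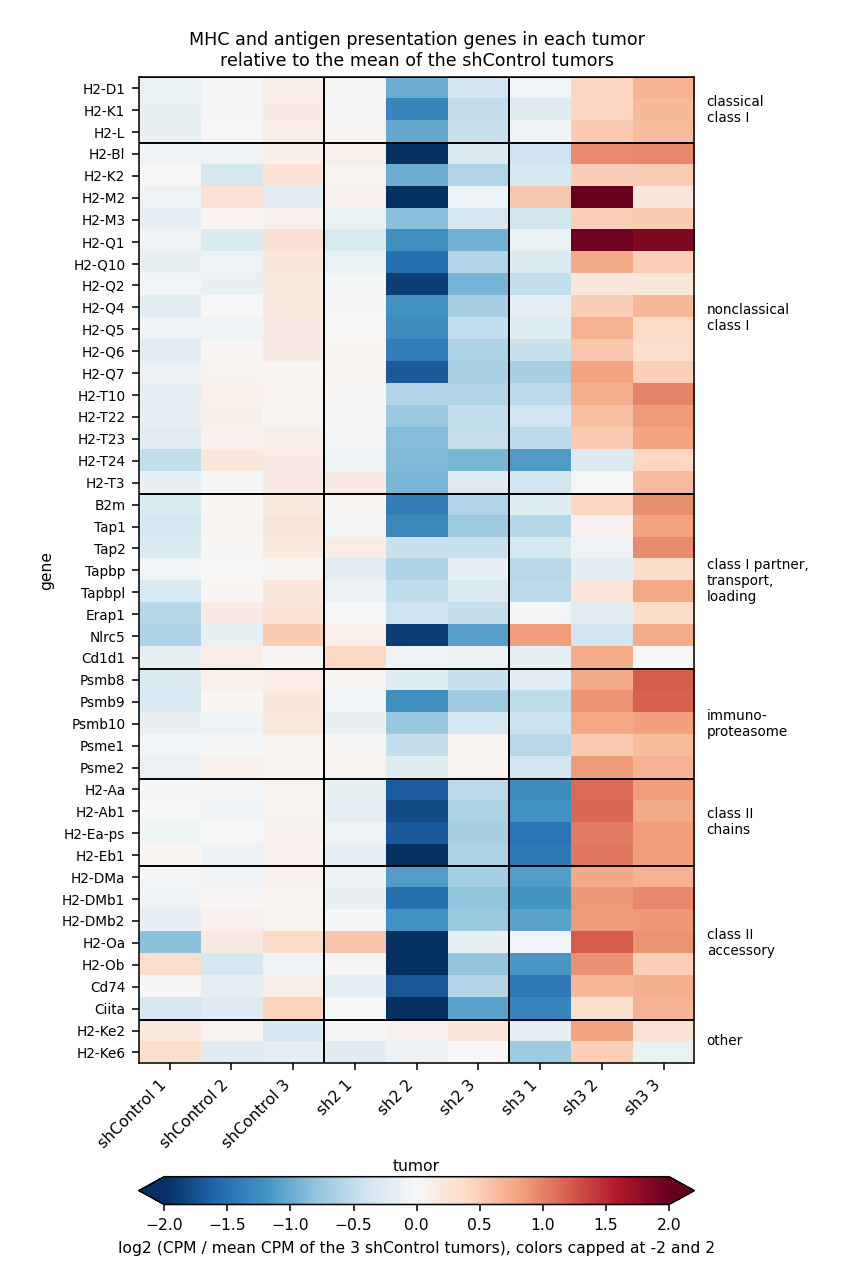
Log2 ratio of the CPM of each member tested to the mean of the 3 shControl tumors, one column per tumor and one row per gene, ordered by role, with repeated rows shown once and colors capped at -2 and 2. The column of sh2 replicate 2 is blue from the classical heavy chains to *Ciita*, the columns of sh3 replicates 2 and 3 are mostly red, and sh3 replicate 1 is darkest blue in the class II rows.

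Classical class I heavy chains present peptides to CD8 T cells. *H2-K1* had 738, 794 and 917 CPM in the shControl tumors, 798, 327 and 579 in the sh2 tumors and 688, 1095 and 1286 in the sh3 tumors. The sh2 and sh3 groups both overlapped the controls, and their log2 fold changes were -0.52 ± 0.33 (SE) with an FDR of 0.999 and 0.33 ± 0.33 with an FDR of 0.871. *H2-D1*, the D heavy chain, had 1449, 1560.4 and 1739.9 CPM in the shControl tumors, 1610.2, 795 and 1218 in the sh2 tumors and 1524, 2141 and 2559 in the sh3 tumors. Its log2 fold changes were -0.39 ± 0.28 with sh2 and 0.39 ± 0.28 with sh3, and between sh3 and sh2 the difference was 0.78 ± 0.28 (FDR 0.673). The *H2-L* row was close to *H2-D1*, at -0.41 and 0.39. The median of the 3 heavy chains was -0.41 with sh2 and 0.39 with sh3.

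Nonclassical heavy chains include molecules with restricted ligands or tissue patterns. Of 24 members, 19 passed the filter, with medians of -0.49 with sh2 and 0.33 with sh3. *H2-T23*, the Qa-1 chain read by NKG2A receptors, had 185, 228 and 234 CPM in the shControl tumors, 212, 118 and 157 in the sh2 tumors and 149.5, 309.9 and 378 in the sh3 tumors. The highest nonclassical row was *H2-Q4*, with log2 fold changes of -0.56 ± 0.31 and 0.37 ± 0.31 and a sh3 to sh2 difference of 0.93 ± 0.31 (FDR 0.673).

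*H2-Q1*, at chr17:35320525-35328142, showed the widest gap between the shRNAs. It had 9.80, 8.49 and 12.7 CPM in the shControl tumors, 8.34, 4.40 and 5.30 in the sh2 tumors and 9.43, 39.6 and 37.8 in the sh3 tumors. The sh2 tumors all lay below the controls, as was the case for 5.83% of genes, and below the sh3 tumors, of which replicate 1 was within the range of the controls and replicates 2 and 3 were far above it. The log2 fold change was -0.78 ± 0.49 with sh2 (exact permutation p = 0.1, two-sided, the smallest that 3 against 3 tumors allow) and 1.49 ± 0.49 with sh3 (FDR 0.753). Between sh3 and sh2 it was 2.27 ± 0.50 (FDR 0.673). *H2-M2* had 17.2, 22.6 and 15.8 CPM in the shControl tumors, 19.6, 4.49 and 17.2 in the sh2 tumors and 27.0, 125 and 21.6 in the sh3 tumors. A single tumor, sh3 replicate 2, stood out. The log2 fold change of *H2-M2* with sh3 was 1.65 ± 0.71, and 0.39 without that tumor. *H2-Q2* was at -0.75 ± 0.43 with sh2 and 0.03 ± 0.42 with sh3.

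The other nonclassical chains were closer in their values to the classical ones. *H2-M3*, which presents N-formylated peptides, had 46.0, 53.6 and 54.6 CPM in the shControl tumors, 47.1, 28.7 and 40.5 in the sh2 tumors and 39.7, 71.5 and 74.2 in the sh3 tumors. *H2-T22*, a ligand of γδ T cells, had 87.1, 105 and 100.2 CPM in the shControl tumors, 96.0, 58.5 and 69.0 in the sh2 tumors and 75.2, 147 and 176 in the sh3 tumors. In both, all but 1 of the sh2 tumors lay below the controls and sh3 replicates 2 and 3 above them. Their differences between sh3 and sh2 were 0.67 ± 0.26 and 0.84 ± 0.30. *H2-T10*, a close relative of *H2-T22*, was at 0.89 ± 0.35, *H2-Q10*, a secreted chain, at 1.01 ± 0.36 and *H2-Q5* at 0.82 ± 0.32. The rows *H2-Q6* and *H2-Q7*, of Qa-2 type, were at 0.74 ± 0.35 and 0.91 ± 0.45. Smaller values were found for *H2-T3*, the TL antigen, at 0.41 ± 0.35, and *H2-T24*, at 0.39 ± 0.39, which with sh3 lay below the control at -0.20 ± 0.39. The low rows *H2-Bl* and *H2-K2* were at 1.12 ± 0.56 and 0.72 ± 0.33. Like *H2-T10* and *H2-Q5*, both are annotated as transcribed pseudogenes. None of these genes passed at an FDR under 0.05, and between sh3 and sh2 10 of the 19 tested rows, with the copied row *H2-T9* among them, were higher at an unadjusted P under 0.05 (background 3.52%).

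The partner, transport and loading genes had medians of -0.31 with sh2 and 0.25 with sh3, and not all of them lay on the same side as the heavy chains. *B2m*, the light chain of all class I molecules, had 1574, 1949.8 and 2170 CPM in the shControl tumors, 1947, 728 and 1252 in the sh2 tumors and 1608, 2567 and 3613 in the sh3 tumors. Both groups overlapped the controls, at -0.54 ± 0.38 with sh2 and 0.45 ± 0.38 with sh3. The ratio of *H2-K1* to *B2m* counts stayed between 0.356 and 0.468 in the 9 tumors. *Tap1*, an ATP-binding subunit of the peptide transporter, had 143, 188 and 215 CPM in the shControl tumors, 179, 74.6 and 110.0 in the sh2 tumors and 123, 193 and 317 in the sh3 tumors. Its log2 fold change was -0.59 ± 0.39 with sh2 and 0.21 ± 0.39 with sh3, the latter turning to -0.23 without sh3 replicate 3. *Tap2*, the other subunit, was flatter at -0.22 ± 0.32 and 0.29 ± 0.32, and the *Tap2* to *Tap1* count ratio, 0.718 to 0.777 in the controls, was 1.33 in sh2 replicate 2.

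*Tapbp*, tapasin, which bridges the transporter to empty heavy chains, had 513, 538 and 556 CPM in the shControl tumors, 457, 349 and 478 in the sh2 tumors and 366, 465 and 690.5 in the sh3 tumors. All sh2 tumors lay below all controls (exact permutation p = 0.1, two-sided, the smallest possible), at -0.32 ± 0.23 and an FDR of 0.999, and sh3 was at -0.08 ± 0.23. *Tapbpl*, a tapasin-related peptide editor, was at -0.30 ± 0.29 and 0.26 ± 0.29. *Erap1*, the aminopeptidase that trims peptides in the endoplasmic reticulum, was at -0.28 ± 0.25 and 0.06 ± 0.25. *Cd1d1* had 4.30, 5.42 and 4.99 CPM in the shControl tumors, 6.53, 4.69 and 4.51 in the sh2 tumors and 4.35, 8.18 and 4.88 in the sh3 tumors. It varied least of the 48 members, by 1.90 times between the lowest and the highest tumor, and was at 0.10 ± 0.31 and 0.24 ± 0.31.

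*Nlrc5* broke the order of the tumors. This transactivator of class I genes had 93.2, 129 and 206 CPM in the shControl tumors, 154, 38.7 and 67.2 in the sh2 tumors and 256, 108 and 239 in the sh3 tumors. Its highest level was in sh3 replicate 1, the tumor in which most class I genes lay slightly below the controls, and it was the sole member tested to peak there. The log2 fold changes were -0.72 ± 0.52 with sh2 (FDR 0.999) and 0.49 ± 0.52 with sh3 (FDR 0.878), and 1.21 ± 0.53 between sh3 and sh2 (FDR 0.673). The ratio of *Nlrc5* to *Ciita* counts was 1.14 to 1.50 in the controls, 0.824 in sh3 replicate 2 and 6.18 in sh3 replicate 1.

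The inducible proteasome subunits were highest in sh3 replicates 2 and 3. *Psmb9* had 104, 131 and 149 CPM in the shControl tumors, 123, 55.0 and 77.7 in the sh2 tumors and 90.6, 239.6 and 289.6 in the sh3 tumors. *Psmb8* had 250.4, 329 and 342 CPM in the shControl tumors, 316, 259 and 225 in the sh2 tumors and 261, 518 and 707 in the sh3 tumors. *Psmb10* had 94.3, 99.3 and 121 CPM in the shControl tumors, 95.1, 61.7 and 82.7 in the sh2 tumors and 77.6, 180.4 and 186 in the sh3 tumors. In each of these 3 genes, sh3 replicates 2 and 3 lay above all controls and sh3 replicate 1 did not. With sh3 the log2 fold changes were 0.69 ± 0.42 for *Psmb9*, 0.69 ± 0.32 for *Psmb8* (FDR 0.76) and 0.49 ± 0.31 for *Psmb10*. With sh2 they were -0.59 ± 0.42, -0.20 ± 0.32 and -0.39 ± 0.31. The activator subunits *Psme1* and *Psme2*, which open the proteasome's gate, were near the control with sh2, at -0.12 ± 0.28 and -0.03 ± 0.28, and at 0.29 ± 0.28 and 0.49 ± 0.28 with sh3.

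To set the inducible subunits against the constitutive ones they replace, counts of each were divided within a tumor. *Psmb8* was 6.01, 9.18 and 10.3 times *Psmb5* in the shControl tumors, 7.68, 7.22 and 5.14 times in the sh2 tumors and 8.63, 7.57 and 17.3 times in the sh3 tumors, without correction for length. The 6 shRNA tumors together differed from the controls by a mean log2 ratio of -0.0006 (exact permutation p = 1, adjusted over 3 ratios p = 1, two-sided). *Psmb9* was 0.588, 0.739 and 0.994 times *Psmb6* in the shControl tumors, 0.769, 0.311 and 0.467 times with sh2 and 0.634, 0.838 and 1.36 times with sh3. That difference was -0.20 (exact permutation p = 0.667, adjusted p = 1). For *Psmb10* over *Psmb7* it was -0.15 (exact permutation p = 0.655, adjusted p = 1). These pooled values join opposite signs. In the order *Psmb8*, *Psmb9* and *Psmb10*, the log2 ratios differed from shControl by -0.33, -0.65 and -0.45 with sh2 alone. With sh3 alone they differed by 0.33, 0.25 and 0.15 (exact permutation p of 0.2 to 0.8 in these 6 comparisons). With sh3 alone against sh2 alone the log2 ratios differed by 0.66, 0.90 and 0.59 in the same order, each with an exact permutation p of 0.2, where 0.1 is the smallest possible.

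Class II chains spread more widely over the tumors than the classical class I chains, by 6.61 to 8.53 times between the lowest and the highest tumor against 3.17 to 3.93 times. *H2-Aa*, the α chain of the A molecule, had 1214, 1206 and 1294 CPM in the shControl tumors, 1113, 392 and 851 in the sh2 tumors and 520.4, 2725 and 2211 in the sh3 tumors. *H2-Ab1*, its β chain, had 912, 857 and 948 CPM in the shControl tumors, 791, 263 and 587 in the sh2 tumors and 389, 1997 and 1535 in the sh3 tumors. *H2-Eb1*, the β chain of the E molecule, had 1126, 1012 and 1166 CPM in the shControl tumors, 961, 269.6 and 714 in the sh2 tumors and 409.6, 2299 and 1973 in the sh3 tumors. The controls lay within a narrow band in all 3, and all sh2 tumors lay below all controls, with replicate 2 lowest. The sh3 tumors stood on both sides, replicate 1 far below and replicates 2 and 3 far above the controls. With sh2 the log2 fold change was -0.66 ± 0.55 for *H2-Aa*, -0.73 ± 0.55 for *H2-Ab1*, -0.76 ± 0.60 for *H2-Eb1* and -0.68 ± 0.57 for *H2-Ea-ps*, each with an FDR of 0.999 and an exact permutation p of 0.1, the smallest possible. With sh3 it was 0.56 ± 0.55, 0.53 ± 0.55, 0.50 ± 0.60 and 0.49 ± 0.57, with FDRs of 0.868 to 0.891.

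**Figure D4:**
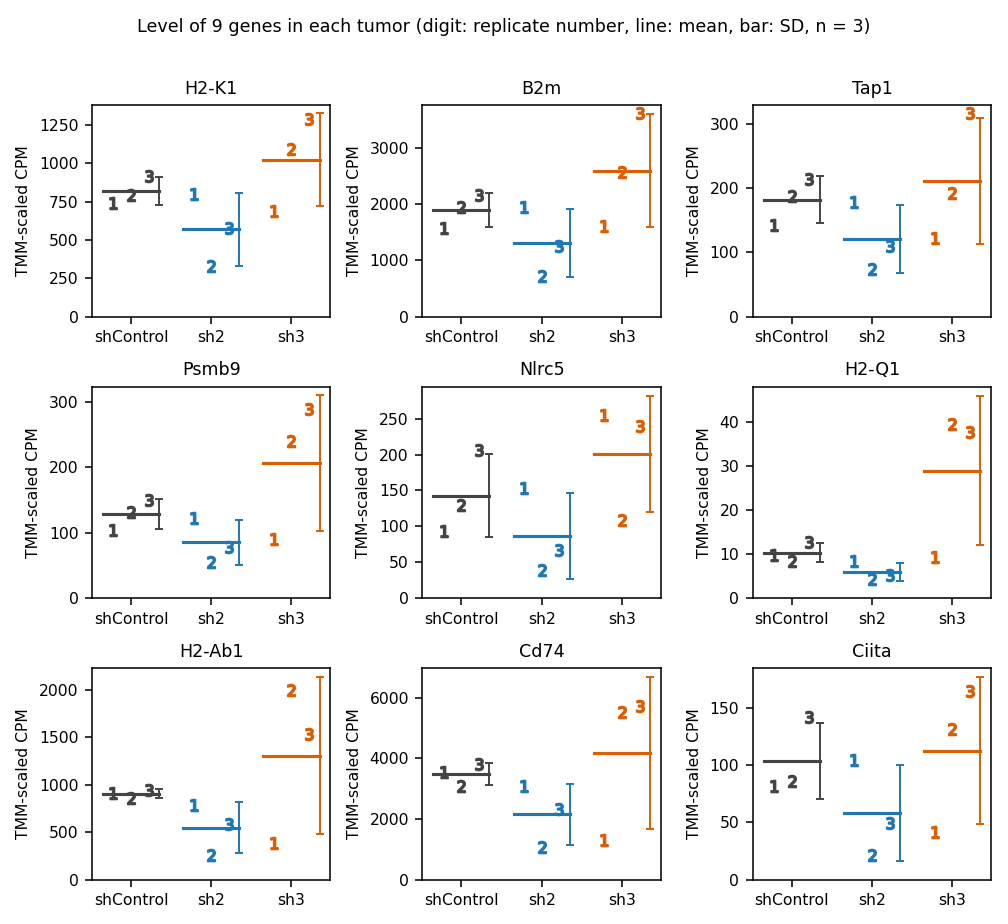
TMM-scaled CPM of 9 members in each tumor, on axes that start at 0. Digits are replicate numbers, horizontal lines group means and bars SD (n = 3 tumors). Replicate 2 of sh2 is lowest of the sh2 tumors in each panel, and replicate 1 of sh3 is lowest of its group in all panels but that of *Nlrc5*, where it is highest.

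The chains of one molecule stayed in step. *H2-Ab1* held 0.671 to 0.752 counts per count of *H2-Aa* over all 9 tumors, while each chain varied by 7.59 and 6.95 times between tumors. The balance of class II to class I varied between tumors. *H2-Ab1* held 1.03 to 1.24 counts per count of *H2-K1* in the controls, 0.992, 0.805 and 1.01 in the sh2 tumors and 0.566, 1.82 and 1.19 in the sh3 tumors. The sh2 tumors all lay below the controls, and of the sh3 tumors replicate 1 lay below, replicate 2 above and replicate 3 within their range.

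Of the 7 class II accessory genes, 6 lay below all controls in sh3 replicate 1, 6 above them in replicate 2 and 7 in replicate 3. The share of all genes outside the range of the controls in single tumors was not computed. *Cd74* had 3547, 3094 and 3813 CPM in the shControl tumors, 3073, 1061 and 2327 in the sh2 tumors and 1292, 5541 and 5728 in the sh3 tumors. All sh2 tumors lay below all controls, at -0.69 ± 0.54 (FDR 0.999), although the gap from sh2 replicate 1 to the lowest control was small. With sh3 it was 0.26 ± 0.53, and -0.06 without sh3 replicate 3. The DM chains, which exchange the invariant chain fragment for peptide, showed the same order. *H2-DMa* had 125, 122 and 138 CPM in the shControl tumors, 118, 59.4 and 80.5 in the sh2 tumors and 59.4, 217 and 208 in the sh3 tumors, and *H2-DMb1* 119.5, 128 and 128 CPM in the shControl tumors, 113, 44.0 and 72.1 in the sh2 tumors and 54.5, 229 and 243 in the sh3 tumors. Both had all sh2 tumors below all controls. In total, 9 of the 48 members were separated from the controls downward with sh2, beside 5.83% of all genes, and 7 of the 9 were on the class II side. With sh3, 0 of the 48 were separated from the controls in either direction, beside 6.78% of genes upward and 5.44% downward.

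*Ciita*, the transactivator of class II genes, had 82.0, 86.3 and 142 CPM in the shControl tumors, 104, 21.4 and 49.3 in the sh2 tumors and 41.3, 131 and 165 in the sh3 tumors. Its log2 fold change of -0.83 ± 0.60 with sh2 was the most negative of the members (FDR 0.999), and with sh3 it was 0.12 ± 0.60. Levels of *Ciita* with sh3 were below the controls in replicate 1 alone. *H2-Ob* had 4.64, 2.86 and 3.40 CPM in the shControl tumors, 3.71, 0.531 and 2.13 in the sh2 tumors and 1.62, 6.86 and 5.05 in the sh3 tumors, and *H2-Oa* 0.980, 1.95 and 2.25 CPM in the shControl tumors, 2.57, 0.290 and 1.54 in the sh2 tumors and 1.66, 4.01 and 3.21 in the sh3 tumors. These DO chains were at -0.77 ± 0.68 and -0.23 ± 0.68 with sh2 and 0.31 ± 0.67 and 0.78 ± 0.68 with sh3. Their counts were low, at 11 to 135 for *H2-Ob* and 6 to 79 for *H2-Oa*. The part of this in the size of the errors was not tested.

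Across the 9 tumors, 8 pairs of genes were correlated on log2 CPM, with exact permutation of all pairings, two-sided, and adjustment over the 8. Of these, 7 are given. Tumors of all 3 groups enter together, and values with the group means removed follow. For *Ciita* and *Cd74*, r = 0.95 (exact permutation p = 8.82e-05, adjusted p = 0.000353) and rho = 0.917 (exact permutation p = 0.00131), with r = 0.935 within groups. Without the 2 tumors farthest from the median of *Ciita*, sh2 replicate 2 and sh3 replicate 1, r was 0.867 over 7 tumors. For *Ciita* and *H2-Ab1*, r = 0.927 (exact permutation p = 0.000284, adjusted p = 0.000757) and rho = 0.883 (exact permutation p = 0.00308). Within groups r was 0.909, and without the same 2 tumors it was 0.776 (adjusted p = 0.0563, exact permutation, over 7 tumors), no longer past 0.05.

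*Nlrc5*, the class I transactivator, was set against 2 of the class I genes. For *Nlrc5* and *H2-K1*, r = 0.758 (exact permutation p = 0.0175, adjusted p = 0.0175) and rho = 0.55 (exact permutation p = 0.133). Within groups r was 0.555 (adjusted p = 0.123, exact permutation), and without sh2 replicate 2 and sh3 replicate 1 it was 0.753 (adjusted p = 0.0567), so the relation did not pass within groups, or over the 7 other tumors. For *Nlrc5* and *B2m*, r = 0.78 (exact permutation p = 0.0133, adjusted p = 0.0152) and rho = 0.633 (exact permutation p = 0.076), with 0.6 within groups (adjusted p = 0.103, exact permutation) and 0.809 without the same 2 tumors. Whether the *Ciita* and *Nlrc5* correlations differ was not tested. For *Irf1*, which binds interferon response elements, and *Psmb9*, r = 0.903 (exact permutation p = 0.000496, adjusted p = 0.000794) and rho = 0.983 (exact permutation p = 4.96e-05), with 0.88 within groups and 0.903 without shControl replicate 3 and sh3 replicate 3.

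**Figure D5:**
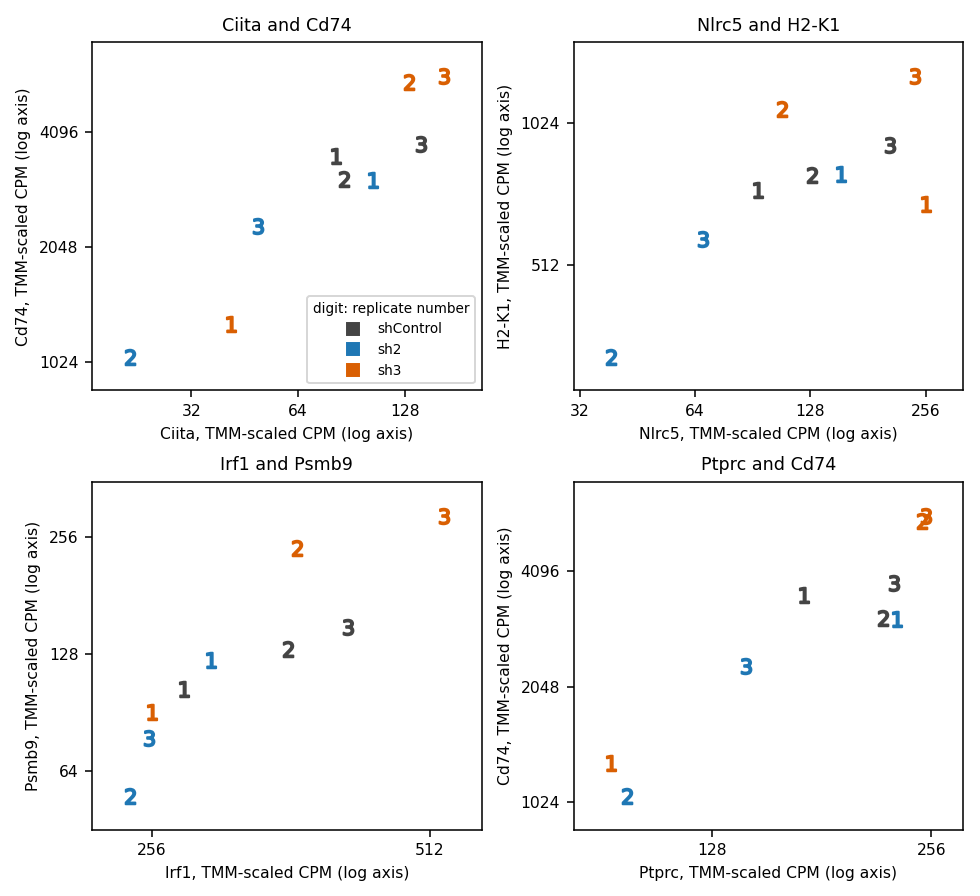
TMM-scaled CPM of 4 pairs of genes in the 9 tumors, on log axes. Digits are replicate numbers and colors groups. *Cd74* follows *Ciita* and *Ptprc*, *Psmb9* follows *Irf1*, and sh3 replicate 1 lies below the run of the other tumors in the panel of *Nlrc5* and *H2-K1*, at 256 and 688 CPM.

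Leukocyte markers varied between tumors as well. *Ptprc*, the pan-leukocyte antigen CD45, had 171, 219.7 and 227 CPM in the shControl tumors, 229.7, 98.0 and 143 in the sh2 tumors and 93.2, 248 and 251 in the sh3 tumors. For *Ptprc* and *Cd74*, r = 0.937 (exact permutation p = 0.000449, adjusted p = 0.000794) and rho = 0.867 (exact permutation p = 0.00451), with 0.95 within groups and 0.754 without sh2 replicate 2 and sh3 replicate 1 (adjusted p = 0.0567, exact permutation, over 7 tumors), no longer past 0.05. For *Ptprc* and *H2-K1*, r = 0.81 (exact permutation p = 0.00381, adjusted p = 0.00507) and rho = 0.933 (exact permutation p = 0.00075), with 0.924 within groups and 0.874 without them. The summed CPM of 7 macrophage markers was 2593 to 2918 in the controls, 1460 to 2519.7 with sh2 and 1014 to 5308 with sh3, lowest in sh3 replicate 1 and highest in sh3 replicate 2. For 7 dendritic cell markers it was 187 to 199, 126 to 192 and 108 to 255, and for 6 T cell markers 71.4 to 88.2, 21.6 to 94.2 and 48.5 to 156. Markers of B cells (4 genes) summed to 5.84 to 10.2, 2.56 to 9.94 and 11.5 to 20.1, with every sh3 tumor above every control. Taken singly, 2 of these markers were separated in that way (background 6.78%). Those of NK cells (3 genes) summed to 19.1 to 30.1, 7.44 to 24.4 and 15.9 to 43.3. The 5 carcinoma markers summed to 1989.9 to 3106, 2286 to 4421 and 2431 to 2664, a sum made up almost wholly of *Krt8*, *Krt18* and *Epcam*, with *Krt8* and *Krt18* highest in sh2 replicate 2 and *Epcam* in sh2 replicate 3. The squamous markers of that list were low in most tumors. *Krt5* had 87.4, 0.455 and 0.573 CPM in the shControl tumors, 0.843, 5.02 and 1.88 in the sh2 tumors and 0.0925, 0.305 and 0.0856 in the sh3 tumors. *Trp63* had 6.94, 1.53 and 2.78 CPM in the shControl tumors, 3.08, 0.773 and 1.79 in the sh2 tumors and 0.370, 1.47 and 4.66 in the sh3 tumors. *Krt5* was highest in shControl replicate 1 by far, and lay below every control in every sh3 tumor (background 5.44%). *Trp63* lay below all controls in sh2 replicate 2 and in sh3 replicates 1 and 2. Fibroblast markers (4 genes) summed to 2167 to 3738, 1712 to 2726 and 984 to 1468, with every sh3 tumor below every control. Taken singly, 2 of them were separated in that way (background 5.44%). Endothelial markers (3 genes) summed to 177 to 211, 154 to 187 and 120.1 to 186. None of these 40 markers was at 0 in any tumor. The part of tumor composition in the values of the members was not tested.

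Other genes of the same pathways, listed by role, were counted in the same way. No gene of these lists passed at an FDR under 0.05 in any comparison. Between sh3 and sh2, the 16 listed proteasome genes that are no members, which are constitutive core subunits and the activators *Psme3* and *Psme4*, had a median of 0.35, beside 0.89 for the 5 members of the immunoproteasome role, and 6 of 16 were higher at an unadjusted P under 0.05 (background 3.52%). The 8 listed genes of the endoplasmic reticulum, which are chaperones (*Calr*, *Canx*, *Pdia3* and *Hspa5*), translocon subunits (*Sec61a1* and *Sec61b*) and enzymes of protein degradation (*Ube2j1* and *Syvn1*), had a median of -0.10, with 0 of 8 past that P in either direction. Calreticulin (*Calr*), part of the class I loading complex, had 2029.5, 1785 and 1808 CPM in the shControl tumors, 1903, 1729 and 2482 in the sh2 tumors and 1417, 1495 and 2276 in the sh3 tumors. The 8 genes of endosomal processing had 0.18, the 13 transcription factors 0.10 and the 5 tested class I-like genes outside the MHC 0.21, with 0, 0 and 1 past that P.

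Among the 8 genes of interferon γ signalling the median was 0.31, and 2 were higher with sh3 than with sh2 at an unadjusted P under 0.05 (background 3.52%). *Ifng*, the cytokine itself, had 1.66, 2.19 and 3.40 CPM in the shControl tumors, 1.31, 0.483 and 0.918 in the sh2 tumors and 1.99, 4.42 and 4.49 in the sh3 tumors. It was lower in each sh2 tumor than in each control and sh3 tumor, at -1.41 ± 0.50 with sh2 (FDR 0.999) and 2.00 ± 0.50 between sh3 and sh2 (FDR 0.673). Of all genes tested, 5.83% had every sh2 tumor below every control and 5.51% every sh3 tumor above every sh2 tumor. *Socs1*, an inhibitor induced by the same pathway, had 7.28, 8.53 and 8.02 CPM in the shControl tumors, 5.86, 3.24 and 5.13 in the sh2 tumors and 10.1, 21.7 and 14.4 in the sh3 tumors. All sh2 tumors lay below (background 5.83%) and all sh3 tumors above the controls (background 6.78%), at -0.74 ± 0.32 and 0.96 ± 0.32. Between sh3 and sh2 the difference was 1.70 ± 0.33 (FDR 0.673). The receptor genes *Ifngr1* and *Ifngr2* were at -0.23 ± 0.25 and -0.07 ± 0.19 between sh3 and sh2. These genes were named here after their values were seen.

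The 6 members that did not pass the filter were near the detection limit. *H2-Eb2*, a second E β gene, had 5, 1 and 3 counts in the shControl tumors, 6, 1 and 5 in the sh2 tumors and 3, 13 and 8 in the sh3 tumors. *H2-M9* had 15, 8 and 2, 9, 9 and 14 and 4, 2 and 1 in the same order, lower in each sh3 than in each sh2 tumor. This is opposite in sign to the tested members, at counts too low to read a direction. The share of all genes with such a gap is not given here. *H2-M5* had 1, 1 and 5, 6, 2 and 4 and 5, 8 and 15, with its CPM in each sh3 tumor above each control (exact permutation p = 0.1, the smallest that 3 against 3 tumors allow). Of all genes tested, 6.78% were separated in that way. *H2-M11*, *H2-M10.4* and *H2-M10.2* had at most 4, 1 and 1. The 2 members that carry the prefix for their place in the MHC alone, *H2-Ke2* (*Pfdn6*, a subunit of the prefoldin chaperone) and *H2-Ke6* (*Hsd17b8*, a steroid dehydrogenase), were at 0.10 ± 0.24 and -0.11 ± 0.30 with sh2 and 0.36 ± 0.24 and -0.04 ± 0.30 with sh3.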

How the data were processed

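RNA of 30 to 50 mg pieces of 9 KLN205 tumors (3 shControl, 3 sh2, 3 sh3) was sequenced from stranded poly-A libraries. Per the labels and the study's methods, the authors checked reads with FastQC, aligned them to mm10 with STAR 2.5.3a, counted them with featureCounts and tested with edgeR. The handling of strand and of reads that match several genes is not given in the sources used here. The deposited table holds raw read counts, used for all tests, and TPM made by the authors, used for levels between genes and not tested. Its 9 columns of the authors' CPM and its 10 columns of their comparisons (log2 fold change, mean CPM, likelihood ratio, P and FDR of each shRNA against control) were not used. Members and gene lists were chosen with earlier results of these data known.

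All genes were fitted with edgeR 4.0.16 in R 4.3.3 (filterByExpr, TMM, robust quasi-likelihood test, all 9 tumors, group as the sole term), and P-values were adjusted over 14725 genes. They set the difference between groups against the spread between tumors of a group, estimated over all 9 tumors. CPM are TMM-scaled, and log2 CPM have a prior count of 2. Single values were tested by exact permutation over tumors, where the smallest p is 0.1 for 3 against 3 and 0.0119 for 6 against 3. On simulated counts for sh3 against shControl (14608 genes), 30% of genes changed by 1 on the log2 scale were recovered and 82% of those changed by 2.

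Named in full were the main class I and II chains, *B2m*, *Tap1*, *Tap2*, *Tapbp*, *Psmb8* to *Psmb10*, *Nlrc5*, *Cd1d1*, *Cd74*, *Ciita*, members separated from the controls and the 5 largest changes with each shRNA. Other members and pathway genes were named after their values had been seen. Alternatives were leaving out each tumor, a fit of the compared groups alone, a replicate block, size factors and the Wald test of DESeq2 1.42.0, edgeR's likelihood ratio test, and the filter on low counts set aside or replaced by 10 counts in every tumor. Macrophage marker Adgre1 is listed as *Emr1*. The correlation of 1 of the 8 pairs is not reported here. Figures were drawn with matplotlib 3.10.9.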

Additional observations from a re-analysis of the deposited data

How the results depend on the processing

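Median log2 fold changes of each of the 6 roles moved by less than the SD between tumors under the alternatives run. They kept their direction with sh2 and in sh3 against sh2. With sh3, the median of the partner, transport and loading genes turned to -0.13 without sh3 replicate 3. With both shRNAs together, where medians were near 0, those of all 6 roles turned on leaving out 1 tumor or another, and members above 0 went from 15 of 48 to 36 of 49 without sh2 replicate 2 and 37 of 49 without sh3 replicate 1. The number of genes of the whole table with an FDR under 0.05, 0 in each comparison, was 2, 41, 9 and 46 by DESeq2's Wald test (sh2, sh3, both against shControl, and sh3 against sh2) and 8, 8 and 14 by the likelihood ratio test (sh3, both, and sh3 against sh2). Of the members, 1 was among them, *H2-Q1* in sh3 against sh2, at log2 2.25 and 2.27.

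Members at an unadjusted P under 0.05 numbered 0 to 16 (sh2 against shControl), 0 to 21 (sh3), 0 to 3 (both) and 2 to 40 (sh3 against sh2) when 1 tumor was left out. The share of all genes at that P moved as well, over 1.09% to 6.13%, 3.67% to 14.4%, 2.03% to 8.28% and 4.46% to 19.0% in the same order. When just the groups compared were fitted, the counts were 2 (sh2 against shControl) and 11 (sh3 against sh2), and the Wald test gave 31 in sh3 against sh2. Of all genes, 5.34%, 4.26% and 9.28% passed that P in these fits, in the same order. Replicate numbers did not pair the tumors: deviations of same-numbered tumors correlated at a mean r of -0.0992 (9 pairs, -0.235 to 0.0863) and those of other tumors at 0.0519. With the replicate block, 1 member passed in sh3 against shControl and 10 in sh3 against sh2, beside 4.55% and 5.03% of all genes.

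Leaving out single tumors moved the log2 ratio of the inducible to the constitutive subunit to -0.23 to 0.16 (*Psmb8* to *Psmb5*), -0.41 to 0.015 (*Psmb9* to *Psmb6*) and -0.28 to 0.027 (*Psmb10* to *Psmb7*). Correlations that no longer passed were those of *Ciita* and *H2-Ab1* (0.776), *Nlrc5* and *H2-K1* (0.753) and *Ptprc* and *Cd74* (0.754) without the 2 farthest tumors, and those of *Nlrc5* with *H2-K1* (0.555) and with *B2m* (0.600) with group means removed. Some log2 fold changes, none of them past the test, turned when 1 tumor was left out, and lay at -0.23 to 0.49 (*Tap1*, sh3 against shControl), -0.22 to 0.52 and -0.0046 to 0.74 (*Tap2*, sh3 against shControl and against sh2), -0.39 to 0.11 and -0.071 to 0.43 (*Tapbp*, likewise), -0.098 to 0.20, -0.089 to 0.41 and -0.18 to 0.32 (*Cd1d1*, sh2 and sh3 against shControl, and sh3 against sh2), -0.058 to 0.69 (*Cd74*, sh3), -0.29 to 0.52 (*Ciita*, sh3), -0.12 to 0.71 (*H2-Ob*, sh3), -0.11 to 0.23 (*H2-Q2*, sh3) and -0.90 to 0.26 (*H2-Oa*, sh2). The cause was not tested. Depth limits the 6 members below the filter, and the spread between tumors limits the others.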
